A study of Mus musculus with 16 samples.

Results

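The 10 genes of immature T cells, Rag1, Rag2, Dntt, Cd8a, Cd8b1, Cd4, Cd3e, Ptcra, Lck and Themis, were followed through 4 populations of sorted mouse thymic epithelial cells. They are listed by name, were chosen with earlier results of these data known, and are 10 of the 43432 genes in the deposited count files. All 10 passed the filter on low counts and were among the 19617 genes tested. Thymocytes carry the leukocyte surface protein CD45, and the sort kept CD45-negative cells.

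Thymocytes are the developing T cells of the thymus. They begin without either coreceptor (double-negative), then carry CD4 and CD8 together (double-positive) in the cortex, and end as cells with 1 of them (single-positive) in the medulla. Double-negative and double-positive cells cut and join their T cell receptor genes with the RAG recombinase, and double-positive cells make up most of the organ. Epithelial cells of cortex and medulla lie in close contact with them, and some cortical epithelial cells, the thymic nurse cells, enclose whole thymocytes.

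All 4 populations came from C57BL6.Aire-CreERT2.Ai14 mice, males and females together, aged 5 to 6 weeks. Each animal received 2 mg of tamoxifen, and thymi were taken after 7 days. The tamoxifen-activated Cre is driven by Aire, the regulator of tissue-restricted antigens in medullary epithelium, and in Ai14 it switches on a red fluorescent protein (RFP) for good. RFP thus marks cells that transcribed Aire around the time of the tamoxifen and their descendants, and RFP- cells can have used Aire earlier or later. Live CD45-negative, EPCAM-positive cells were split by MHC class II (MHCIIhi or MHCIIlo) and by RFP, and each of the 4 combinations had 4 replicates. Every replicate pooled 12 thymi, and the gate held no marker that separates cortical from medullary epithelium. Whether equal replicate numbers came from the same pool of mice is not stated in the sources used here.

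The 16 libraries held 7.93 to 19.46 M counted reads. The number of cells sorted ran from 80500 to 164000 in 3 populations and from 19400 to 20500 in RFP+ MHCIIlo. The share of reads on the mitochondrial ribosomal RNAs was 39.2 to 45.9% in RFP- MHCIIlo and 29.3 to 38.5% in the other populations. Epcam, which encodes the sorted epithelial surface protein, was at 343 to 594 counts per 1000000 (CPM) as a mean in the 4 populations. A CPM of 1 is 1 read in a library of 1000000 after scaling for composition. Some libraries stood apart for the thymocyte genes. Replicate 4 of both MHCIIhi populations was the highest of its 4 for all 10 genes, and replicate 1 of RFP+ MHCIIlo was the lowest for 8 of 10 and for 10 of 10 mature medullary epithelial genes. Replicate 1 of RFP- MHCIIlo was the lowest for 7 of 10.

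The 5′ flanks of Rag1 and Lck are shown as examples of members with the same order of mean levels over the 4 sorts. That of Themis is shown because its order departed from the others. Rag1 and Lck differed in size of effect, with log2 differences of -2.99 and -1.72 in RFP+ against RFP- MHCIIhi. RefSeq promoter windows of build GRCm38.p6 run from 250 bases before to 50 bases after the transcription start. They were given for 8 of the 10 genes, in 10 windows, and Cd4 and Cd8b1 are named only. Capitals mark matches on either strand. The core searched for RUNX factors was TGTGGT. For ETS factors the letters were AGGAAG. The E-box, bound by E proteins, was searched as CAGCTG. The last marked motif was the CCAAT box. A TATA box (TATAAA) and a GATA core (AGATAA) were searched too and are in none of the windows printed. The marked matches do not overlap each other. Rag1 lies on the minus strand at chr2:101649483-101649782, Lck on the minus strand with a distal start at chr4:129573592-129573891 and a proximal start at chr4:129558323-129558622, and Themis on the plus strand at chr10:28668110-28668409.
Rag1: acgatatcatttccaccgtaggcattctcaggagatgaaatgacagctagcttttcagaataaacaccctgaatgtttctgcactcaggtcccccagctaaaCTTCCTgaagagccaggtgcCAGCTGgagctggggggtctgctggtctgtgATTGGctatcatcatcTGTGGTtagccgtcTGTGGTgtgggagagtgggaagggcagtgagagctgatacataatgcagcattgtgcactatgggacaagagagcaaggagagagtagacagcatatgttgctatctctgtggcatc
Lck distal: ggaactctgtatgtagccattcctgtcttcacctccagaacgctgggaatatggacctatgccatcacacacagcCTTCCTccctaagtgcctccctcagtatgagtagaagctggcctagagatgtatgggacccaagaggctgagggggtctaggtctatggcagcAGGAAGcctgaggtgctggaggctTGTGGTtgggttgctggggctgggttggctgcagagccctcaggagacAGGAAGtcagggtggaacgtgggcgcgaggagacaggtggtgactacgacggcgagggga
Lck proximal: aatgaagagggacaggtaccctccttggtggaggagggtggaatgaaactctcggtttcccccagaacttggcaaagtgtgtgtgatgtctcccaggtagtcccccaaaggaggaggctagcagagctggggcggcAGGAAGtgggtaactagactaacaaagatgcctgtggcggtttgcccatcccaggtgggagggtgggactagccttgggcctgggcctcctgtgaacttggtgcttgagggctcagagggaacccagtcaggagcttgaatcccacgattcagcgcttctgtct
Themis: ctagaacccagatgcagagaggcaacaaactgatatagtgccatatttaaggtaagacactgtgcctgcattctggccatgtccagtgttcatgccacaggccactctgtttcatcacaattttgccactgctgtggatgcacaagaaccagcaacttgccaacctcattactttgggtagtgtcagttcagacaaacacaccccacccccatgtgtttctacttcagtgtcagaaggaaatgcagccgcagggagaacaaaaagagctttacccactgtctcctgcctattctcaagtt
The Rag1 window held the RUNX core at positions -81 and -67 from the start, and 1 match each to the ETS core, the E-box and the CCAAT box. The distal Lck window held the RUNX core once and the ETS core 3 times, and the proximal one held the ETS core once. None of these letters are in the Themis window. Of 32851 mouse windows of this length, the RUNX core was in 16.8%, the ETS core in 35.4%, the E-box in 16.3%, the CCAAT box in 37.4%, the TATA box in 13.6% and the GATA core in 11.2%. Among the 8 genes with a window, the RUNX core was in 2, the ETS core in 3, the E-box in 3, the CCAAT box in 1, the TATA box in 0 and the GATA core in 1. The matches are a description of letters, and the gene counts do not tell the Lck starts apart.

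The thymocyte genes were most abundant in RFP- MHCIIhi cells, by a wide margin. Their summed level there was 492 CPM ± 193 (SD, n = 4), with 332, 375, 502 and 760 in replicates 1 to 4. RFP+ MHCIIhi libraries summed to 83.2, 81.3, 81.5 and 143 CPM. The sums were 26.3, 51.8, 53.7 and 31.6 CPM in RFP- MHCIIlo and 43.9, 70.1, 107 and 86.9 CPM in RFP+ MHCIIlo. No library of another population reached the lowest RFP- MHCIIhi library. Among the other 3 populations, RFP+ MHCIIlo overlapped both of the others. RFP+ MHCIIhi, at 81.3 to 143 CPM, lay above RFP- MHCIIlo, at 26.3 to 53.7 CPM, without overlap. Population means were 5.06-fold lower in RFP+ MHCIIhi, 12.1-fold lower in RFP- MHCIIlo and 6.4-fold lower in RFP+ MHCIIlo than in RFP- MHCIIhi. Without replicate 4 of both MHCIIhi populations, these folds were 4.91, 9.88 and 5.24. The reads behind the sums ranged from 247 to 13240 per library, and the exact binomial 95% interval of the smallest was 21.0 to 27.0 per 1000000 reads, which covers counting error only. In bulk samples, fewer cells of a type and less RNA per cell cannot be told apart.

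**Figure D1:**
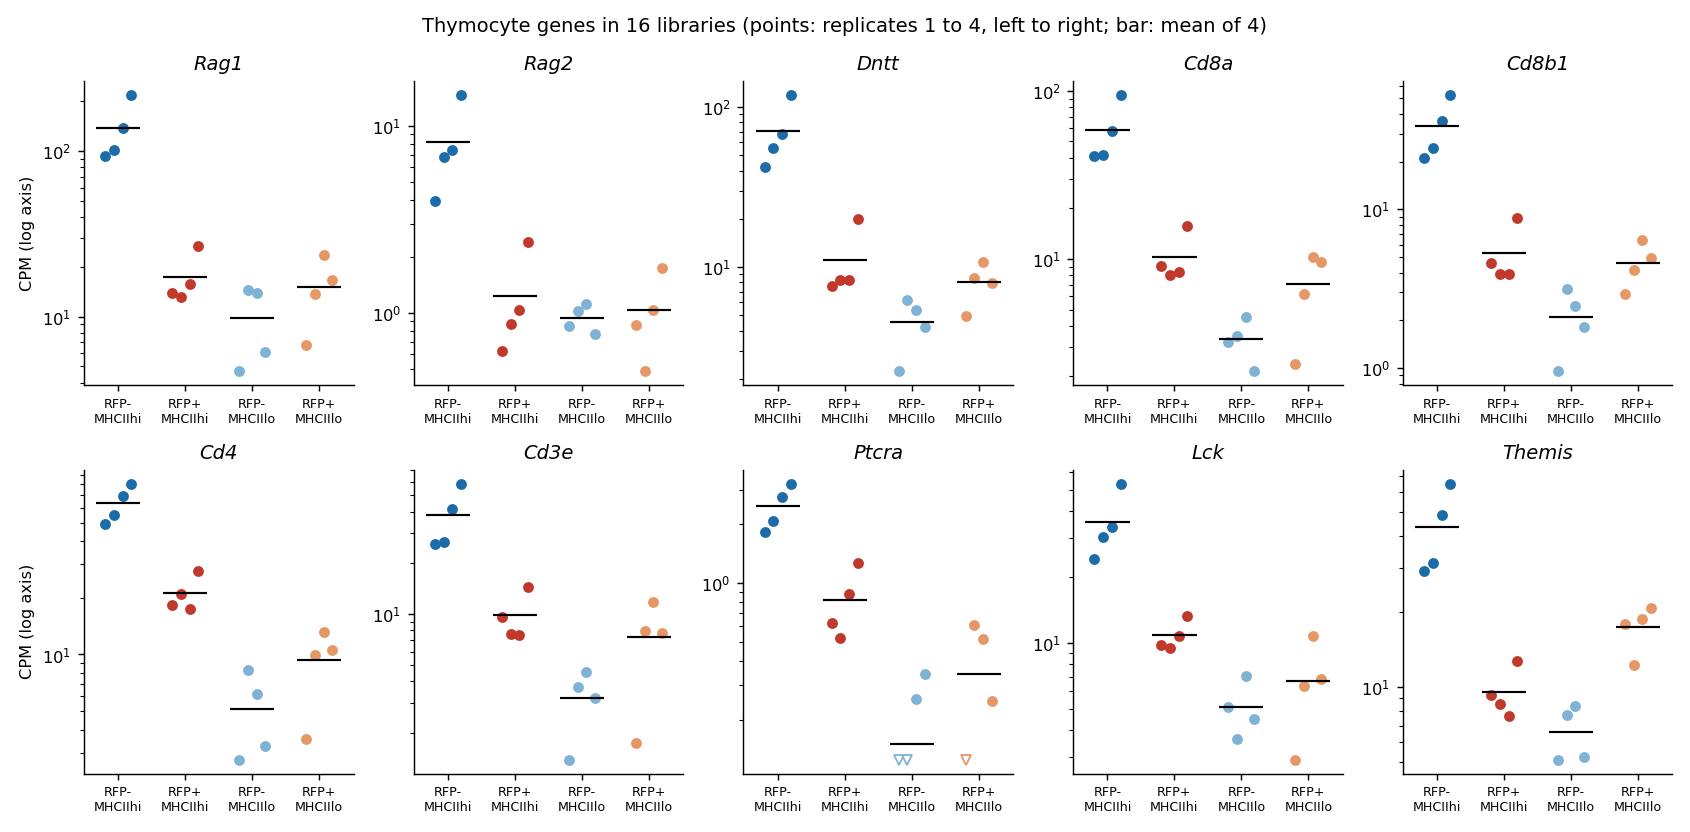
Level of each of the 10 thymocyte genes in CPM (log axis) by sorted population. Points are the 4 libraries of a population in the order of replicates 1 to 4, bars are means of 4, and open triangles at the foot of the Ptcra panel are libraries at 0. All RFP- MHCIIhi points lie above every point of the other populations in all 10 panels.

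Per kilobase of exon, the scale on which genes can be compared, Dntt was the highest member in RFP- MHCIIhi at 31.1 CPM per kb ± 14.7 (SD, n = 4). Cd8b1 followed at 22.7, Rag1 at 20.8, Cd8a at 16.1, Cd4 at 15.7, Lck at 12.1 and Cd3e at 9.34 CPM per kb. Themis at 3.73, Rag2 at 2.39 and Ptcra at 1.92 CPM per kb were the lowest. From Dntt to Cd3e, neighbours in this order differed by less than the larger of their SDs. In RFP+ MHCIIhi the highest member per kb was Cd4, at 5.22 ± 1.15, ahead of Dntt at 4.82 ± 2.61, a gap smaller than their spread.

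Within the MHCIIhi sorts, all 10 genes were lower in RFP+ than in RFP- cells, and the libraries of the pair did not overlap for any of them. The share of all genes without overlap was not counted, in this or in the other comparisons, so lack of overlap is a description only. Over all genes tested, 45.0% were called in this comparison, 21.2% lower and 23.8% higher (edgeR quasi-likelihood test, Benjamini-Hochberg adjusted p under 0.05). The median log2 difference of the 10 genes was -2.36, against -0.02 over all genes. Without replicate 4 of both populations all 10 were still called, at -2.95 for Rag1 and -1.61 for Cd4.

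The recombination genes had the 3 most negative estimates, with that of Cd8b1 close to them. Rag1, the catalytic subunit of the recombinase, stood at 93.5, 101.0, 137 and 218 CPM in RFP- MHCIIhi and at 13.9, 13.2, 15.7 and 26.5 CPM in RFP+ MHCIIhi. The groups did not overlap, with a log2 difference of -2.99 ± 0.31 (SE, adjusted p = 2.9e-08). Rag2, its partner subunit, was at 3.94, 6.78, 7.44 and 14.6 CPM against 0.624, 0.875, 1.04 and 2.39 CPM. The Rag2 groups also stayed apart, with a log2 difference of -2.73 ± 0.38 (adjusted p = 2.5e-06). Dntt encodes terminal deoxynucleotidyl transferase, which adds untemplated bases at the joins. It was at 42.4, 55.6, 67.6 and 119 CPM against 7.56, 8.28, 8.34 and 20.0 CPM. All Dntt values of RFP+ MHCIIhi were below those of RFP- MHCIIhi, by -2.70 ± 0.30 on the log2 scale (adjusted p = 8.7e-08).

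The CD8 chains followed the recombination genes, and Cd4 differed less. Cd8a, the alpha chain present in both forms of CD8, was at 40.9, 41.5, 57.4 and 94.7 CPM in RFP- MHCIIhi and at 9.04, 7.99, 8.34 and 15.7 CPM in RFP+ MHCIIhi. That gap was -2.52 ± 0.29 on the log2 scale (adjusted p = 1.2e-07). Cd8b1, the partner chain, went from 21.2, 24.4, 36.3 and 52.7 CPM to 4.60, 3.91, 3.90 and 8.84 CPM. Its log2 difference of -2.67 ± 0.29 was like that of Cd8a (adjusted p = 5.7e-08). Cd4, the coreceptor for MHC class II, was at 48.9, 54.7, 69.2 and 80.6 CPM in RFP- MHCIIhi. In RFP+ MHCIIhi it was at 18.2, 20.9, 17.4 and 27.6 CPM. The Cd4 groups did not overlap, and the log2 difference was -1.59 ± 0.24 (adjusted p = 6.4e-06).

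The genes of receptor assembly and signalling differed by -2.20 to -1.57 on the log2 scale. Cd3e, a signalling subunit of the T cell receptor complex, stood at 25.7, 26.5, 41.5 and 58.6 CPM against 9.59, 7.58, 7.52 and 14.5 CPM, with a log2 difference of -1.96 ± 0.32 (adjusted p = 1.8e-05). Lck, the kinase bound to the CD4 and CD8 tails, was at 24.0, 30.5, 33.8 and 53.3 CPM against 9.74, 9.45, 10.7 and 13.2 CPM. Lck differed by -1.72 ± 0.24 on the log2 scale (adjusted p = 2.9e-06). Themis, an adaptor that tunes receptor signalling during positive selection, was at 29.1, 31.3, 48.7 and 65.1 CPM against 9.28, 8.52, 7.63 and 12.7 CPM, a log2 difference of -2.20 ± 0.22 (adjusted p = 2.1e-08). Ptcra encodes the surrogate alpha chain with which double-negative cells test a rearranged beta chain. It was the scarcest member, with 32 to 56 reads per RFP- MHCIIhi library and 8 to 18 per RFP+ MHCIIhi library, and differed by -1.57 ± 0.44 (adjusted p = 0.0056).

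**Figure D2:**
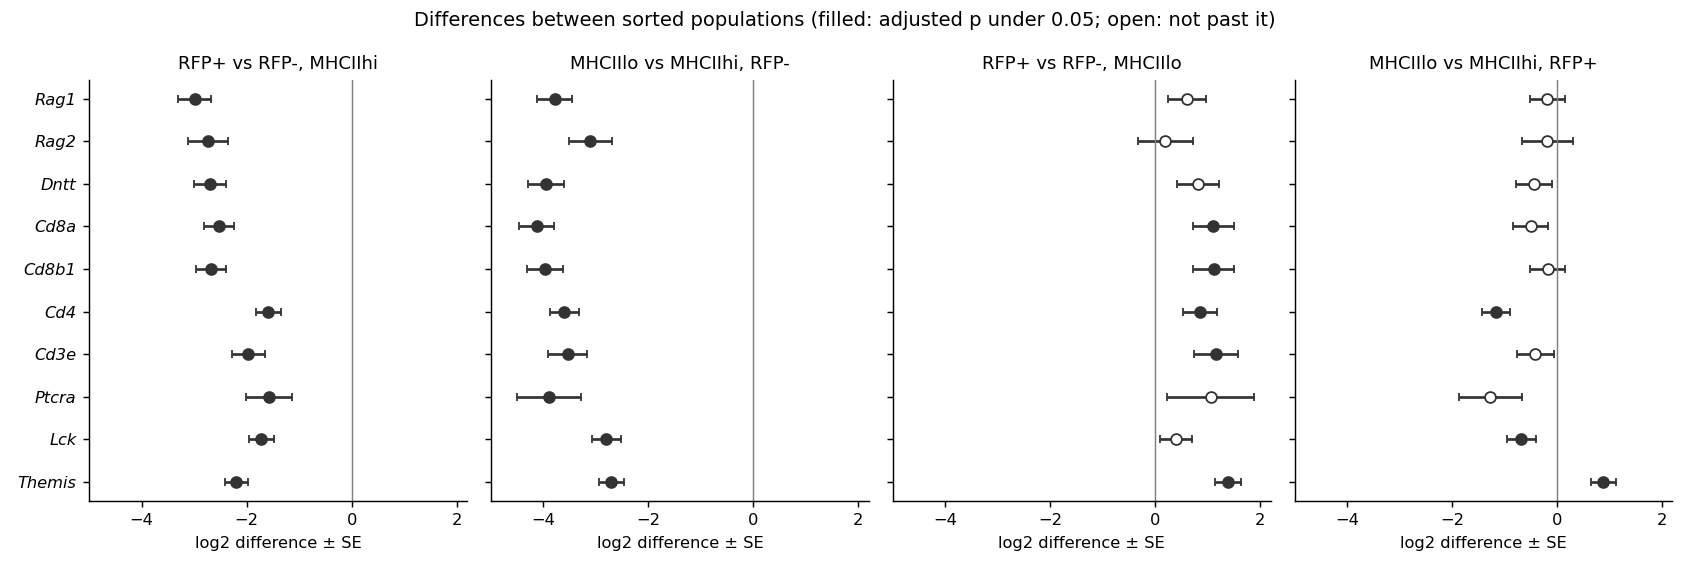
Log2 differences (x axis) of the 10 genes in 4 comparisons between sorted populations, from 1 fit over 16 libraries. Points are estimates and bars are ± SE, filled where the adjusted p is under 0.05. All 10 are filled in both comparisons with RFP- MHCIIhi, 5 of 10 in RFP+ against RFP- within MHCIIlo, and 3 of 10 in MHCIIlo against MHCIIhi within RFP+.

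Among RFP- cells, the MHCIIlo sort held still less of every member than the MHCIIhi sort. All 10 were called lower without overlap, where 69.1% of all genes were called and 35.6% called lower. Their median log2 difference was -3.69, against 0 over all genes, and the differences ran from -4.13 for Cd8a to -2.71 for Themis. Cd8a was at 3.19, 3.48, 4.52 and 2.15 CPM in RFP- MHCIIlo, and the SE of its difference was 0.34 (adjusted p = 1.9e-10). Rag1 was at 4.68, 14.5, 13.9 and 6.11 CPM there, a log2 difference of -3.79 ± 0.34 (adjusted p = 7.5e-10). The Rag1 libraries of RFP- MHCIIlo fell into a higher and a lower pair, yet all were far below those of RFP- MHCIIhi. Ptcra had 0, 0, 3 and 4 reads in the RFP- MHCIIlo libraries. A count of 0 allows up to 0.319 and 0.255 CPM in replicates 1 and 2 (3 reads per library), and its log2 difference of -3.89 ± 0.61 rests on few reads. The comparison of RFP+ MHCIIlo with RFP- MHCIIhi shares its reference libraries with those above. There too all 10 were called lower without overlap, from -3.18 for Rag1 to -1.32 for Themis, where 68.5% of all genes were called and 34.9% called lower.

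Between the MHCIIlo sorts the differences were smaller, and the RFP+ population had the higher mean for all 10 genes. Of the 10 genes, 5 (Cd8a, Cd8b1, Cd4, Cd3e and Themis) were called higher in RFP+ MHCIIlo than in RFP- MHCIIlo, and none lower. In this comparison 51.6% of all genes were called and 28.9% called higher. Themis was at 17.8, 12.2, 18.7 and 20.6 CPM in RFP+ MHCIIlo and at 5.10, 7.72, 8.36 and 5.25 CPM in RFP- MHCIIlo. Its groups were the only ones of the 10 that did not overlap, and the log2 difference was 1.39 ± 0.25 (adjusted p = 6e-05). Cd8a was at 2.38, 6.22, 10.3 and 9.54 CPM in RFP+ MHCIIlo, and replicate 1 lay within the range of RFP- MHCIIlo. Its log2 difference was 1.11 ± 0.39 (adjusted p = 0.021), that of Cd8b1 1.12 ± 0.39 (0.02), that of Cd3e 1.16 ± 0.41 (0.023) and that of Cd4 0.85 ± 0.32 (0.029).

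The calls of Cd8a, Cd8b1, Cd4 and Cd3e depended on the settings, and that of Themis held under all 24 alternatives run. With limma-voom 1 gene, Themis, was called (adjusted p = 0.17 for Cd8a, 0.12 for Cd8b1, 0.096 for Cd4 and 0.19 for Cd3e), and leaving out 1 library at a time gave 1 to 7 called genes. The 4 libraries whose omission lowered the count to 3 or less were RFP- MHCIIlo replicate 1 (2 called), RFP- MHCIIlo replicate 4 (2), RFP+ MHCIIlo replicate 3 (1) and RFP+ MHCIIlo replicate 4 (3). For Rag1, at 6.70, 13.7, 23.4 and 16.7 CPM in RFP+ MHCIIlo, the log2 difference was 0.61 ± 0.36 (adjusted p = 0.17). Dntt differed by 0.81 ± 0.39 (0.087), Lck by 0.40 ± 0.30 (0.28), Ptcra by 1.05 ± 0.83 (0.3) and Rag2 by 0.19 ± 0.53 (0.78), all with overlapping libraries. RFP+ MHCIIlo libraries were made from fewer cells than the others, and cell number and population cannot be told apart here.

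Within RFP+ cells, 3 of the 10 genes were called between MHCIIlo and MHCIIhi, where 55.6% of all genes were called, with 28.1% called lower and 27.5% higher. Cd4 was lower in RFP+ MHCIIlo, at 3.57, 9.99, 13.2 and 10.6 CPM, with no overlap and a log2 difference of -1.16 ± 0.27 (adjusted p = 0.00088). Themis was higher in RFP+ MHCIIlo by 0.88 ± 0.23 (adjusted p = 0.0027), although its replicate 2 at 12.2 CPM was below the highest RFP+ MHCIIhi library at 12.7 CPM. Lck was lower by -0.68 ± 0.27 (adjusted p = 0.039), a call lost with DESeq2 (adjusted p = 0.054) and when RFP+ MHCIIhi replicate 3 or 4 or RFP+ MHCIIlo replicate 1, 2 or 4 was left out (0.06 to 0.15). Leaving out replicate 4 of both MHCIIhi (0.058) or replicate 1 of both MHCIIlo populations (0.15) lost it too, 8 of the 24 alternatives in all. The other 7 genes had log2 differences from -1.27 for Ptcra to -0.18 for Cd8b1. With SEs of 0.33 to 0.61, none of these 7 was called. Against RFP+ MHCIIhi, RFP- MHCIIlo was lower for 8 of the 10, where 65.9% of all genes were called and 35.3% called lower. Cd4 differed by -2.01 ± 0.29 (adjusted p = 1.8e-06). Rag1 differed by -0.80 ± 0.35 (adjusted p = 0.048), and its call was lost without RFP- MHCIIhi replicate 3, RFP- MHCIIlo replicate 1 or 4, RFP+ MHCIIhi replicate 3 or 4 or RFP+ MHCIIlo replicate 2 (0.053 to 0.21). It was also lost with DESeq2 (0.082), with limma-voom (0.07), without mitochondrial ribosomal RNA (0.057), and without replicate 4 of both MHCIIhi (0.15) or replicate 1 of both MHCIIlo populations (0.1), which makes 11 of the 24 alternatives. Rag2 at -0.38 ± 0.49 and Themis at -0.51 ± 0.25 were not called.

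The order of mean levels was thus RFP- MHCIIhi, RFP+ MHCIIhi, RFP+ MHCIIlo, RFP- MHCIIlo for 9 of the 10 genes. For Themis, RFP+ MHCIIlo came second. The RFP effect differed between the MHC class II levels for every member. In the test of that difference, the RFP effect in MHCIIlo minus that in MHCIIhi, all 10 were called higher, where 34.1% of all genes were called, 17.5% higher and 16.6% lower. The differences of effects ran from 2.12 ± 0.39 for Lck (adjusted p = 0.00016) to 3.79 ± 0.48 for Cd8b1 (adjusted p = 1.7e-06). Ptcra, at 2.62 ± 0.95, was the weakest (adjusted p = 0.035), and its call was lost when RFP- MHCIIhi replicate 3 or 4, RFP- MHCIIlo replicate 1 or 2, RFP+ MHCIIhi replicate 1 or 2, or RFP+ MHCIIlo replicate 2 or 3 was left out (0.056 to 0.11). Counting the other settings too, 9 of the 24 alternatives lost the Ptcra call.

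The make-up of the thymocyte reads was compared between the sorts, and none of the 40 shares compared passed 0.05 after Benjamini-Hochberg adjustment (smallest adjusted p = 0.0952, exact permutation test). Each gene's share of the reads on the 10 genes is not corrected for length. Shares were compared between populations by an exact two-sided permutation test of 4 libraries against 4, whose smallest possible p is 0.0286. With that floor and 40 tests, a few shares alone could not pass after adjustment, so the absence of calls does not show a like make-up. Rag1 took 27.8% ± 0.772 (SD, n = 4) in RFP- MHCIIhi, within a narrow 27.1 to 28.7%, although the summed level there varied 2.29-fold. In RFP+ MHCIIhi its share was 16.3 to 19.3%, with no overlap (exact permutation p = 0.0286). The share of Cd4 was larger in RFP+ MHCIIhi, at 19.4 to 25.8% against 10.6 to 14.7% (exact permutation p = 0.0286). The Lck share was 6.75 to 8.14% in RFP- MHCIIhi and 9.24 to 13.1% in RFP+ MHCIIhi, and the Cd3e share was 7.08 to 8.28% and 9.23 to 11.5%, both without overlap. In this pair 7 of 10 shares did not overlap, with Cd8a, Cd8b1 and Rag1 smaller and Cd4, Cd3e, Ptcra and Lck larger in RFP+ MHCIIhi. The 10 shares of a library add up to a fixed total, so a smaller Rag1 share raises others and the shares are not separate observations. The levels of all 10 genes were lower in RFP+ MHCIIhi.

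The share of Themis was 8.35 to 9.72% in RFP- MHCIIhi and 8.90 to 11.2% in RFP+ MHCIIhi. RFP- MHCIIlo libraries gave 14.9 to 19.4%, and those of RFP+ MHCIIlo gave 17.4 to 40.6%, the last value being replicate 1, the library with the lowest levels of 8 other members. The Themis shares of both MHCIIlo sorts lay above those of the MHCIIhi sort with the same RFP state (exact permutation p = 0.0286 each). Neither passed after adjustment (adjusted p = 0.0952 each). Unadjusted, 7 of 10 shares passed in RFP+ against RFP- MHCIIhi, 3 in RFP- MHCIIlo against RFP- MHCIIhi, 2 in RFP+ MHCIIlo against RFP+ MHCIIhi and 0 in RFP+ against RFP- MHCIIlo.

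**Figure D3:**
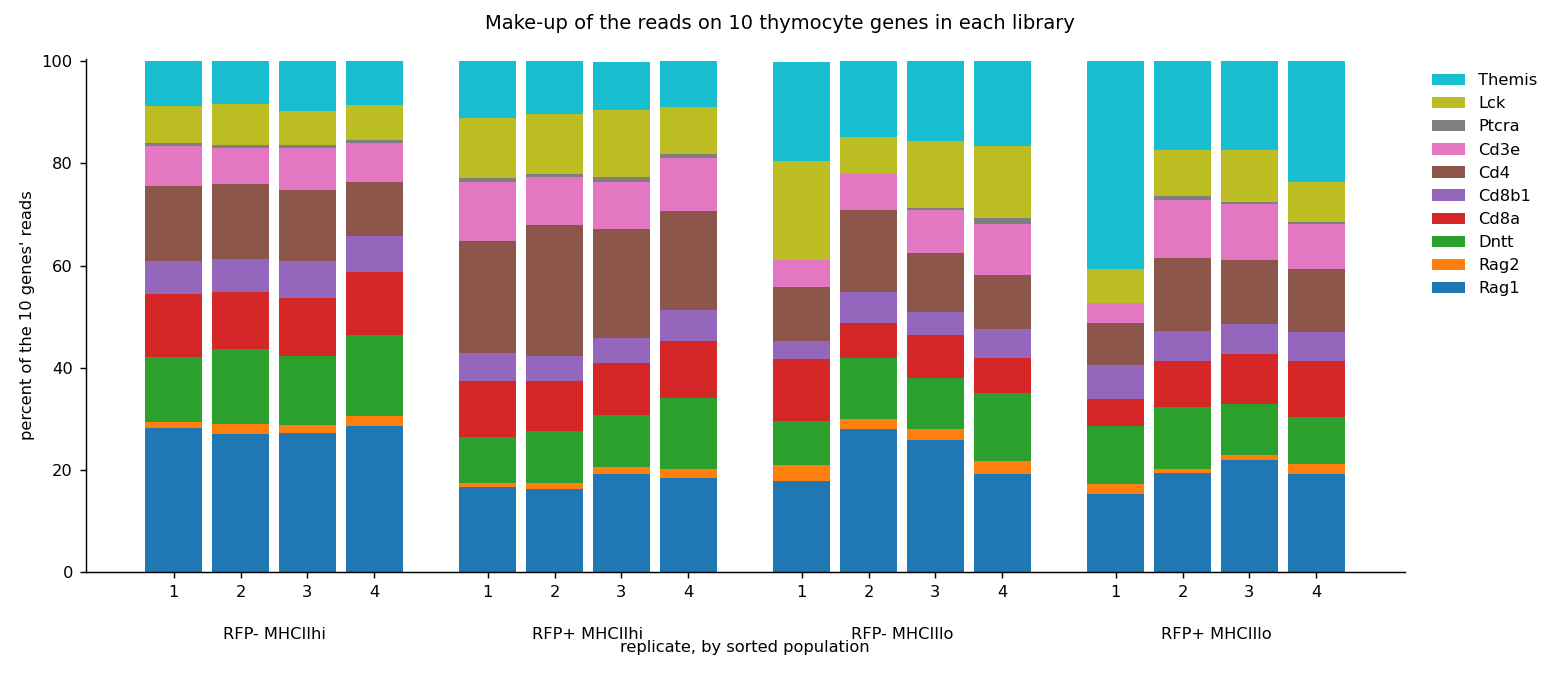
Share of the reads on the 10 thymocyte genes that each gene took in each of the 16 libraries, as stacked bars from 0 to 100%. The Rag1 block is 27.1 to 28.7% in all 4 RFP- MHCIIhi libraries and 16.3 to 19.3% in RFP+ MHCIIhi, and the Themis block reaches 40.6% in RFP+ MHCIIlo replicate 1.

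Inside a population, a library high for 1 member was mostly high for the others. After each population's mean log2 level was taken off, the correlation between members over the 16 libraries had a median r of 0.71 over 45 pairs, from 0.12 to 0.97. The points share their libraries and scaling, so this is a description. Rag1 followed the others most closely, with a median r of 0.86, and Ptcra least, at 0.54. In both MHCIIhi populations the library with the most of every member was replicate 4, at a median of 1.9 times the mean of the other 3 in RFP- MHCIIhi and 1.86 times in RFP+ MHCIIhi. Replicate 4 was highest for 1 of 10 members in RFP- MHCIIlo and for 2 of 10 in RFP+ MHCIIlo. Replicate 3 was highest for 5 and 7 of 10 there.

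The spread between replicates exceeded that of read counting for every member in every population, except Rag2 in RFP- MHCIIlo, where the variance was 0.283 times that of counting. In RFP- MHCIIhi the variance of Rag1 between libraries was 429 times that of counting alone, and it was 60.0 times for Cd4. The ratio was lower for Ptcra, at 1.98 to 3.11 times. The coefficient of variation of Cd4 in the MHCIIhi sorts, 22.6 and 22.1%, was below that of Rag1, at 41.4 and 35.6%.

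Of the 8 genes with the most similar pattern, 6 were on the T cell lists. Among 14072 genes, those with the highest correlation with the summed members over the 16 libraries were Satb1 (r = 0.98), Trbc2, Skap1, Lat, Ccr9, Aqp11, Cxcr4 and Trbc1 (r = 0.967). Trbc1 and Trbc2 are the constant regions of the T cell receptor beta chain, and near-identical in sequence, so reads can be shared between them. Satb1 is a chromatin organiser abundant in thymocytes, and Ccr9 and Cxcr4 are chemokine receptors of immature thymocytes. The nearest single gene was Cxcr4 for Rag1, Trbc2 for Dntt, Ccr9 for Cd8a, Satb1 for Cd8b1, Parvg for Cd4, Arhgap45 for Cd3e, Sla for Lck and Sh2d1a for Rag2. For Themis it was Prrt1 (r = 0.958), whose mean was 1.35 CPM ± 0.526 in RFP+ MHCIIhi against 3.21 ± 0.626 in RFP+ MHCIIlo, and for Ptcra it was Prkcb. Of the 50 genes nearest to the sum, 10 were on the T cell lists. These correlations describe libraries that share scaling and population structure.

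A wider list of T cell genes was also mostly lower outside RFP- MHCIIhi. Of 34 other thymocyte and T cell genes tested, 25 were lower and 2 higher in RFP+ than in RFP- MHCIIhi (median log2 difference -1.28, against -0.02 over all genes). Cd1d1, named after its values were seen, was among the higher. Over all genes in this pair, 21.2% were called lower and 23.8% higher. In RFP- MHCIIlo against RFP- MHCIIhi, 31 of the 34 were lower and 1 higher (median -2.62). Of all genes, 35.6% were called lower and 33.5% higher there. Rhoh differed by -2.34 ± 0.35 in RFP+ against RFP- MHCIIhi (edgeR adjusted p = 6.3e-06). The surface glycoprotein gene Thy1 fell from a mean of 112 to 25.2 CPM in that pair, a log2 difference of -2.16 ± 0.22 (edgeR adjusted p = 2.9e-08). Within MHCIIlo, 10 of the 34 were higher and 4 lower in RFP+ cells, where 28.9% of all genes were called higher and 22.7% lower, so the count of higher genes was near that over all genes. The 4 lower were Cd28, Tox, Ets1 and Prkcq, of which Tox and Ets1 are named after their values were seen. Trac, the alpha chain constant region, was higher by 1.67 ± 0.36 (edgeR adjusted p = 0.00038) while Prkcq, a kinase of receptor signalling, was lower by -1.74 ± 0.20 (1.5e-07).

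The 25 genes of receptor signalling, 6 of them members, gave 18 lower and 1 higher in RFP+ against RFP- MHCIIhi (median -1.45). The 12 genes of V(D)J recombination, 3 of them members, gave 8 lower and 1 higher (median -1.12). In this comparison 21.2% of all genes were called lower and 23.8% higher. The members on both lists are among the lower genes, so these counts partly repeat the member result. Xrcc5, Xrcc6 and Prkdc on that list serve DNA repair in many cell types, and the 9 genes of the list other than the members summed to 199 to 230 CPM in RFP- MHCIIhi and 153 to 164 CPM in RFP+ MHCIIhi.

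Lists for single stages of T cell development did not all move with the members. Of 13 double-positive genes, 8 of them members, 11 were lower and 2 higher in RFP+ MHCIIhi than in RFP- MHCIIhi (median -2.2). The 10 tested genes of single-positive and mature T cells gave 6 higher and 2 lower (median 0.64). All 12 listed genes together summed to 264 to 277 CPM in RFP- MHCIIhi and 406 to 424 CPM in RFP+ MHCIIhi, with no overlap. On that list Ccr7, the receptor that guides mature thymocytes to the medulla, was higher in RFP+ MHCIIhi, at 82.9 CPM ± 9.05 against 32.1 ± 3.76 (SD, n = 4), a log2 difference of 1.37 ± 0.16 (edgeR adjusted p = 1.3e-07). S1pr1, the receptor used to leave the thymus, was higher by 0.46 ± 0.16 (edgeR adjusted p = 0.024). The 11 double-negative genes gave 4 higher and 2 lower (median 0.36), where 23.8% of all genes were called higher and 21.2% lower. Kit and Il2ra, the stem cell factor receptor and the CD25 chain, differed by 0.08 ± 0.09 and -0.24 ± 0.14 (adjusted p = 0.48 and 0.15). Several genes on these stage lists are also used by epithelial cells, and the reads do not say which cell they came from.

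Markers of other cells were set beside the members. Ptprc encodes CD45, the protein the sort excluded. It was at 42.2, 47.8, 61.7 and 88.4 CPM in RFP- MHCIIhi, in the order of the member sums, at 19.3 to 26.7 CPM in RFP+ MHCIIhi and at 17.7 to 23.5 CPM in RFP- MHCIIlo. In RFP+ MHCIIlo, where the members were low, Ptprc was at 33.8, 34.0, 45.3 and 32.3 CPM. The summed levels of the other white cell lists were not highest in RFP- MHCIIhi, and none of their genes was at 0 in every library. Abundant genes carry these sums, and gene by gene the lists were mixed in RFP+ against RFP- MHCIIhi. Of 15 pan-leukocyte genes 7 were higher and 4 lower (median log2 difference 0.06), where 23.8% of all genes were called higher and 21.2% lower. The lower were Ptprc, Coro1a, Arhgdib and Was, and the higher were Lcp1, Cd52, Rac2, Ptpn6, Vav1, Dock2 and Itgal. All of these but Ptprc and Coro1a are named after their values were seen. Of 16 myeloid and dendritic genes 4 were higher, 1 lower and 11 not called (median -0.12), and of 10 B cell genes 3 were higher, 1 lower and 6 not called (median 0.02). The sum of 15 pan-leukocyte genes was 1650 to 1830 CPM in RFP- MHCIIhi and 2190 to 2280 CPM in RFP+ MHCIIhi. The 16 myeloid and dendritic genes summed to 507 to 591 and 741 to 770 CPM in these sorts, with Lyz2 at 372 and 526 CPM as means, and to 144 to 309 CPM in the MHCIIlo sorts. The 10 B cell genes summed to 73.6 to 95.8 and 116 to 139 CPM.

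The cortical epithelial list, like the members, was highest in RFP- MHCIIhi. The 10 genes of that list summed to 4250, 3470, 3690 and 5640 CPM in RFP- MHCIIhi, to 1430 to 1920 CPM in RFP+ MHCIIhi, to 1110 to 1360 CPM in RFP- MHCIIlo and to 451 to 589 CPM in RFP+ MHCIIlo. In RFP+ against RFP- MHCIIhi, 9 of the 10 were lower and 0 higher (median -1.28). Psmb11, the catalytic subunit of the thymoproteasome of cortical epithelium, was at 194 CPM ± 59.8 in RFP- MHCIIhi and 22.6 ± 11.6 in RFP+ MHCIIhi (SD, n = 4), a log2 difference of -3.11 ± 0.27 (edgeR adjusted p = 1.9e-09). Prss16, a cortical serine protease, differed by -2.87 ± 0.31 (edgeR adjusted p = 6.4e-08). Replicate 4 was the highest library for 9 of the 10 cortical genes in RFP- MHCIIhi and for 8 of 10 in RFP+ MHCIIhi, as for the thymocyte genes. Replicate 1 of RFP- MHCIIhi, the lowest of its 4 for all thymocyte genes, was second for the cortical sum. In RFP+ MHCIIlo the cortical sum was the lowest of the 4 populations and the thymocyte sum was not. No gene of the list was at 0 in every library. The mesenchymal, erythroid and endothelial lists were also higher in RFP- than in RFP+ MHCIIhi without overlap of their sums. Of all genes, 23.8% were called higher and 21.2% lower in RFP+ MHCIIhi in this pair. The 9 mesenchymal genes summed to 276 to 335 and 168 to 198 CPM, with 3 lower and 0 higher in RFP+ MHCIIhi. Thy1, also on the T cell list, is among these 9 and fell from a mean of 112 to 25.2 CPM, a large part of that gap. The mesenchymal sum was 631 to 1210 CPM in RFP- MHCIIlo, where the thymocyte genes were lowest. The 6 erythroid genes summed to 13.8 to 14.1 and 9.68 to 12.9 CPM, with 1 of 4 tested lower, and to 3.12 to 8.50 CPM in the MHCIIlo sorts. The 9 endothelial genes summed to 42.1 to 46.6 and 36.7 to 41.9 CPM, with 2 lower and 1 higher, and to 62.9 to 99.1 CPM in RFP- MHCIIlo. The part of these cell types and of other white cells in the thymocyte gene levels was not tested.

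**Figure D4:**
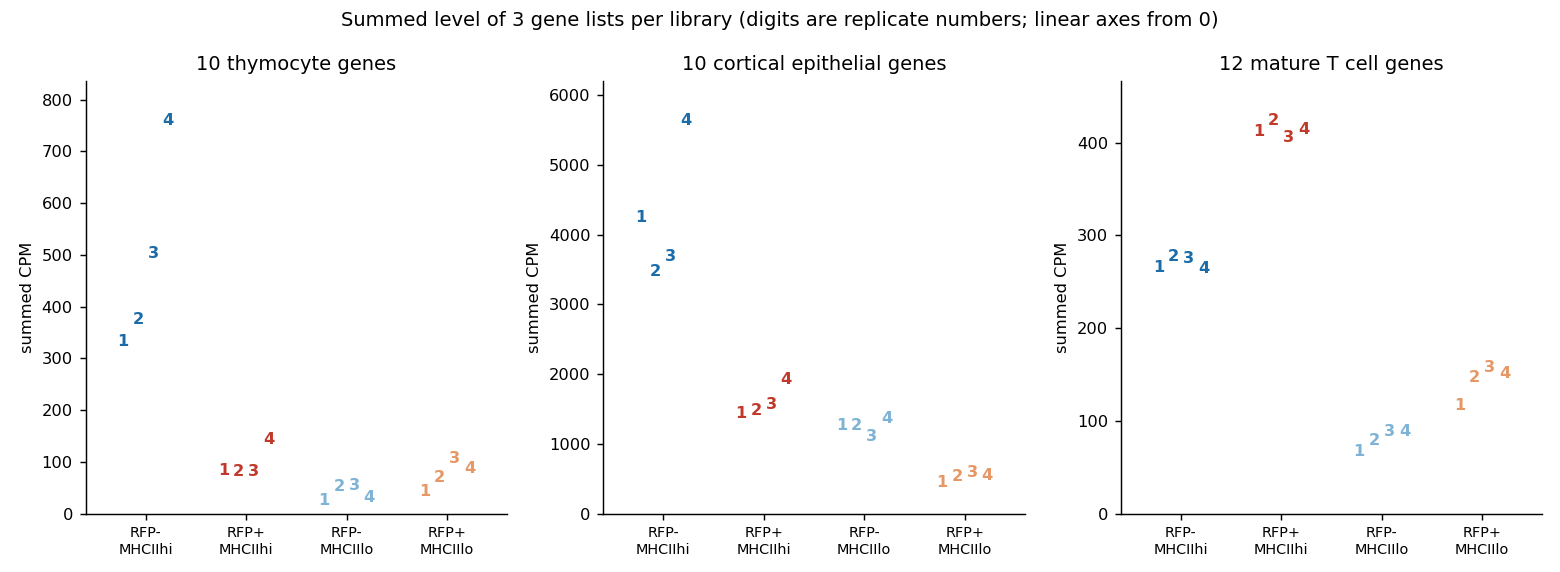
Summed level in CPM (linear axes from 0) of the 10 thymocyte genes, 10 cortical epithelial genes and 12 mature T cell genes in each library, drawn as its replicate number. Replicate 4 tops both the thymocyte and the cortical panel in RFP- MHCIIhi (760 and 5640 CPM), whereas the mature T cell sum is highest in RFP+ MHCIIhi (406 to 424 CPM).

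Some members overlap other annotated genes (GENCODE M21, GRCm38). Rag1 (chromosome 2, 101638282 to 101649501, minus strand) and Rag2 (chromosome 2, 101624718 to 101632529, plus strand) share 80 and 208 exonic bases with B230118H07Rik, which had 2485 reads over all libraries against 702 for Rag2. Cd3e shares 135 exonic bases with the antisense gene Gm48719. Lck and Themis share 25 and 153 with Mir8119 and 4930519F09Rik, which had 4 and 5 reads. The strand setting of the counting is unknown here, and reads of such partners cannot be told apart in those stretches.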

How the data were processed

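RNA was measured in 16 libraries, 4 for each of 4 sorted populations. Per the labels' protocols, sorted cells were lysed, poly(A) RNA was taken up on beads and amplified (NuGen Ovation V2), and sequencing libraries followed with Nextera XT. The deposited files hold raw read counts per Ensembl gene. The submitters' processing notes name STAR, GRCm38 and DESeq2, while the counter, strand setting and annotation release behind the counts were not given in the sources used here.

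Symbols, exon lengths and overlaps came from GENCODE M21, which named 42548 of 43432 genes. The 884 without a symbol held 0.098% of reads. Counts were tested with edgeR 4.0.16 (R 4.3.3): filterByExpr (minimum count 10, total 15), TMM scaling, 1 quasi-likelihood fit over 16 libraries with a mean per population, and Benjamini-Hochberg adjustment within each comparison at 0.05. CPM are TMM-scaled. Correlations used log2 CPM with a prior count of 2. The 6 pairwise comparisons share libraries and are not independent. P-values measure the spread between pools of 12 mice. Replicates of a population were compared and none was a copy of another. Exact permutation tests used scipy 1.17.1, and figures matplotlib 3.10.9. Motifs were searched as exact letters on both strands.

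The members and lists were chosen with earlier results of these data known. Named genes are the members, the first 3 of each list, the T cell genes with the largest called differences (up to 6 per comparison) and the nearest genes by correlation (8 for the sum, 1 per member). Some genes under this rule are not reported here. Alternatives were RLE scaling, DESeq2 1.42.0, limma-voom (limma 3.58.1), no filter, no mitochondrial ribosomal RNA, a replicate block, and each library left out. Leaving out replicate 4 of both MHCIIhi populations or replicate 1 of both MHCIIlo populations was added after seeing the data.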

Additional observations from a re-analysis of the deposited data

Results flagged for a closer look

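In RFP+ MHCIIhi, replicate 4 lay far from the other 3 libraries for 3 of the 10 genes: Dntt at 20.0 CPM, Cd8a at 15.7 CPM and Cd8b1 at 8.84 CPM. Of the 40 groups of 4 libraries examined in this way, chance alone marks about 1 in 20. The same library was the highest of its population for the other 7 genes.

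The RFP effect differed between MHCIIlo and MHCIIhi for each gene, by a log2 value of 3.6 for Rag1, 2.92 for Rag2, 3.51 for Dntt, 3.63 for Cd8a, 3.79 for Cd8b1, 2.44 for Cd4, 3.12 for Cd3e, 2.62 for Ptcra, 2.12 for Lck and 3.59 for Themis. Each is a term of the edgeR fit, and all 10 passed an adjusted p of 0.05. The members share their libraries, so these are not 10 separate observations.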

How the results depend on the processing

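All 10 genes were called lower in RFP+ MHCIIhi, RFP- MHCIIlo and RFP+ MHCIIlo than in RFP- MHCIIhi under each of the 24 alternatives run. Of RFP+ against RFP- MHCIIlo, 5 genes were called in the reported fit, 1 with limma-voom and 1 to 7 with single libraries left out. Of RFP+ MHCIIlo against RFP+ MHCIIhi, 3 were called in the reported fit 6 with no filter and 2 to 3 with single libraries left out. The causes were not tested. Some differences that were never called changed sign. With single libraries left out, Rag2 in RFP+ against RFP- MHCIIlo ran from -0.22 to 0.37. In RFP+ MHCIIlo against RFP+ MHCIIhi the ranges were -0.49 to 0.08 for Rag1, -0.59 to 0.31 for Rag2 and -0.39 to 0.17 for Cd8b1, and Rag2 in RFP- MHCIIlo against RFP+ MHCIIhi ran from -0.56 to 0.12. Without replicate 4 of both MHCIIhi populations the values were 0.05 for Rag1, 0.28 for Rag2 and 0.14 for Cd8b1 in RFP+ MHCIIlo against RFP+ MHCIIhi, and 0.13 for Rag2 in RFP- MHCIIlo against RFP+ MHCIIhi. Without replicate 1 of both MHCIIlo populations, Rag1 in RFP+ MHCIIlo against RFP+ MHCIIhi was 0.05. The borderline Rag1 call of RFP- MHCIIlo against RFP+ MHCIIhi had adjusted p-values (edgeR, DESeq2 or limma-voom) of 1.4e-07 with no filter and 0.014 to 0.21 under the other alternatives.

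Whether equal replicate numbers pair the libraries is not known, and they were not treated as pairs. The deviations of same-numbered libraries correlated at -0.019 to 0.129 against -0.121 to 0.079 for other pairs, and 4 of 24 same-numbered pairs were over 0.1. For 14 of 16 libraries, the mean correlation with libraries of other populations was highest for their own number. With the replicate block, 10 members were called in RFP+ against RFP- MHCIIhi, 6 in RFP+ against RFP- MHCIIlo, 3 in RFP+ MHCIIlo against RFP+ MHCIIhi and 9 in RFP- MHCIIlo against RFP+ MHCIIhi.

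Depth limits Ptcra most, with 0 to 5 reads per MHCIIlo library, and Rag2, with 4 to 21.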
